A study of Mus musculus with 4 samples.

Results

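Egr1, Egr2, Egr3, Nr4a1, Ier2, Ier3, Ier5 and Arc are immediate-early genes, a class that cells transcribe within minutes of a stimulus from factors that are already present. These 8 genes were taken by symbol from the 31053 genes of the deposited count matrices, and all 8 had at least 1 unique molecular identifier (UMI, a tag that marks a single RNA molecule) in the data. They were followed across the cell classes of the adult mouse brain and across a change of the dissociation protocol. Whole brains of 4 male C57BL/6J mice aged 90 days (P90), with no transgene or other allele named on the labels, were dissociated with enzymes, and each brain gave 1 droplet library (10x Genomics 3′ version 2). Both groups are wild-type tissue taken out of the animal and digested, and the labels place all 4 libraries in a single batch. For 2 animals the buffers held no inhibitors. For the other 2 animals actinomycin D and triptolide, which block transcription, were present from perfusion through dissection to digestion, and anisomycin, which blocks translation, was added for dissection and digestion.

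Signals that reach the nucleus through the ERK and p38 kinases or calcium act on factors bound to immediate-early promoters, above all SRF with its ELK partners and CREB. The transcripts appear quickly and are short-lived, and the comparison sets their levels without inhibitors against those with inhibitors. It cannot tell RNA made during dissociation apart from a loss, with inhibitors, of RNA that was already present. In neurons Egr1, Egr3 and Arc are known as markers of recent synaptic activity, and in macrophages and microglia Egr1, Nr4a1 and the Ier genes respond to stress and inflammatory stimuli.

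The libraries held 5134359 to 7529804 UMIs, and 9861 cells with 20757084 UMIs were kept in 14 classes. Classes were named by marker genes, hence "microglia-like", and the 8 genes were left out of the clustering. In the 9 classes with at least 20 cells in every animal, all markers of the class had UMIs in every library. Sums per class ran from 84254 UMIs in macrophage/monocyte-like cells to 1253671 in microglia-like cells of 1 animal, so low levels are far better measured in microglia-like cells. The libraries shared 67 barcode sequences, and olfactory ensheathing-like cells were found only in replicate 1 of each group. Over all cells and both groups the 8 genes had 3337 (Ier5), 1811 (Ier2), 619 (Ier3), 498 (Egr1), 268 (Nr4a1), 185 (Arc), 89 (Egr3) and 35 UMIs (Egr2). Levels are given as CPM, the UMIs of the gene scaled to 1000000 UMIs of that class in that animal, in the order replicate 1 and replicate 2. Differences are log2 fold changes of values without inhibitors over values with inhibitors from edgeR's quasi-likelihood test on sums per animal. A gene was called where its p, adjusted by the Benjamini-Hochberg method over every gene tested in the class, was under 0.05 and its log2 fold change was beyond 0.58 in either direction. With 2 animals per group these p-values rest on a spread that edgeR estimates from few animals and shares across genes. They do not measure the spread of a single gene between animals alone, and an exact permutation test could not go below 0.333.

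Promoters are shown because the inhibitors act on new transcription from them. RefSeq windows (build GRCm38.p6) were matched for 4 of the 8 genes, Egr2, Nr4a1, Ier3 and Ier5. No window was matched for Egr1, Egr3, Ier2 and Arc. Each line gives the 150 bases before an annotated start, 5′ to 3′ on the gene's strand, for Egr2 (chr10:67537719-67537868, plus strand, 1 of 5 windows), Nr4a1 (chr15:101266696-101266845, plus strand), Ier3 (chr17:35821563-35821712, plus strand) and Ier5 (chr1:155099637-155099786, minus strand). Capitals mark a CArG box (the SRF motif), the CREB core TGACG on either strand, or an NF-kB site.
Egr2: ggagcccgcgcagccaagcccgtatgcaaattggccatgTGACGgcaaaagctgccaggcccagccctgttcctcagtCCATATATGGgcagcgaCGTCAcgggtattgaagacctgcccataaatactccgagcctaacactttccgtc
Nr4a1: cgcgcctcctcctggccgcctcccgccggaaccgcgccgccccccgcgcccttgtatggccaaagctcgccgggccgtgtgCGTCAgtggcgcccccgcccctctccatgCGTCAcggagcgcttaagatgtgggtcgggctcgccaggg
Ier3: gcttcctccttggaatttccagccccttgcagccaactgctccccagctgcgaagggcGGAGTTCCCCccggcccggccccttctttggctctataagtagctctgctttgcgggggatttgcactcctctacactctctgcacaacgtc
Ier5: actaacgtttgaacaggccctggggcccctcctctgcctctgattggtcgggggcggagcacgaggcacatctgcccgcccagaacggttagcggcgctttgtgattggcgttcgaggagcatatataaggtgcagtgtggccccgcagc

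Both strands of the 250 bases before each start were searched for the CArG box, the CREB core TGACG and the full CREB palindrome TGACGTCA that holds it, the ETS core CCGGAA, the Egr motif GCGNGGGCG, the AP-1 motif TGANTCA, the NF-kB site and the TATA element TATAAA. The Egr2 window shown held a CArG box 72 to 63 bases before the start and 2 TGACG cores that do not overlap it. The Egr2 windows before 67537870 and 67537930 overlap it and held the same motifs. The window before 67537566 held another CArG box and CCGGAA but no TGACG, and the window before 67535499 held none of the motifs. Nr4a1 held TGACG 4 times, 2 of them in the bases shown, with 1 CCGGAA and 1 GCGNGGGCG that overlapped none of them. Ier3 held an NF-kB site 92 to 83 bases before the start, and Ier5 held none of these motifs as written. Variants of them, such as the tatataag in the Ier5 bases shown, were not searched. Among 32851 promoter windows of the same length, 1.47% held a CArG box, 17.8% TGACG, 1.55% TGACGTCA, 12.03% CCGGAA, 4.70% GCGNGGGCG, 6.75% TGANTCA, 3.90% an NF-kB site and 12.4% TATAAA.

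Most of the 8 genes are compact. In the mouse genome GRCm38 with GENCODE M21, Ier2 (ENSMUSG00000053560, chromosome 8, 84661331 to 84662852) and Ier5 (ENSMUSG00000056708, chromosome 1, 155096361 to 155099636) have 1 exon. Ier3 (ENSMUSG00000003541, chromosome 17, 35821684 to 35822923), Egr1 (ENSMUSG00000038418, chromosome 18, 34859823 to 34864984), Egr2 (ENSMUSG00000037868, chromosome 10, 67535475 to 67542188) and Egr3 (ENSMUSG00000033730, chromosome 14, 70077203 to 70082614) have 2 exons. Arc (ENSMUSG00000022602, chromosome 15, 74669083 to 74672570) has 3 exons, and Nr4a1 (ENSMUSG00000023034, chromosome 15, 101254269 to 101274795) has 8. The spans run from 1240 bases (Ier3) to 6714 bases (Egr2), with Nr4a1 at 20527, against a median of 17385 bases and 7 exons over 21818 measured protein-coding genes. The pentamer ATTTA, the core of AU-rich elements that shorten the life of an RNA, occurred 5 times in the 1131 bases of the Ier3 transcript, or 4.42 per kb, a density above that of 99.2% of genes. Egr3 had 1.78 per kb, and the other 6 genes lay between 0 and 1.18, against a median of 0.811.

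**Figure D1:**
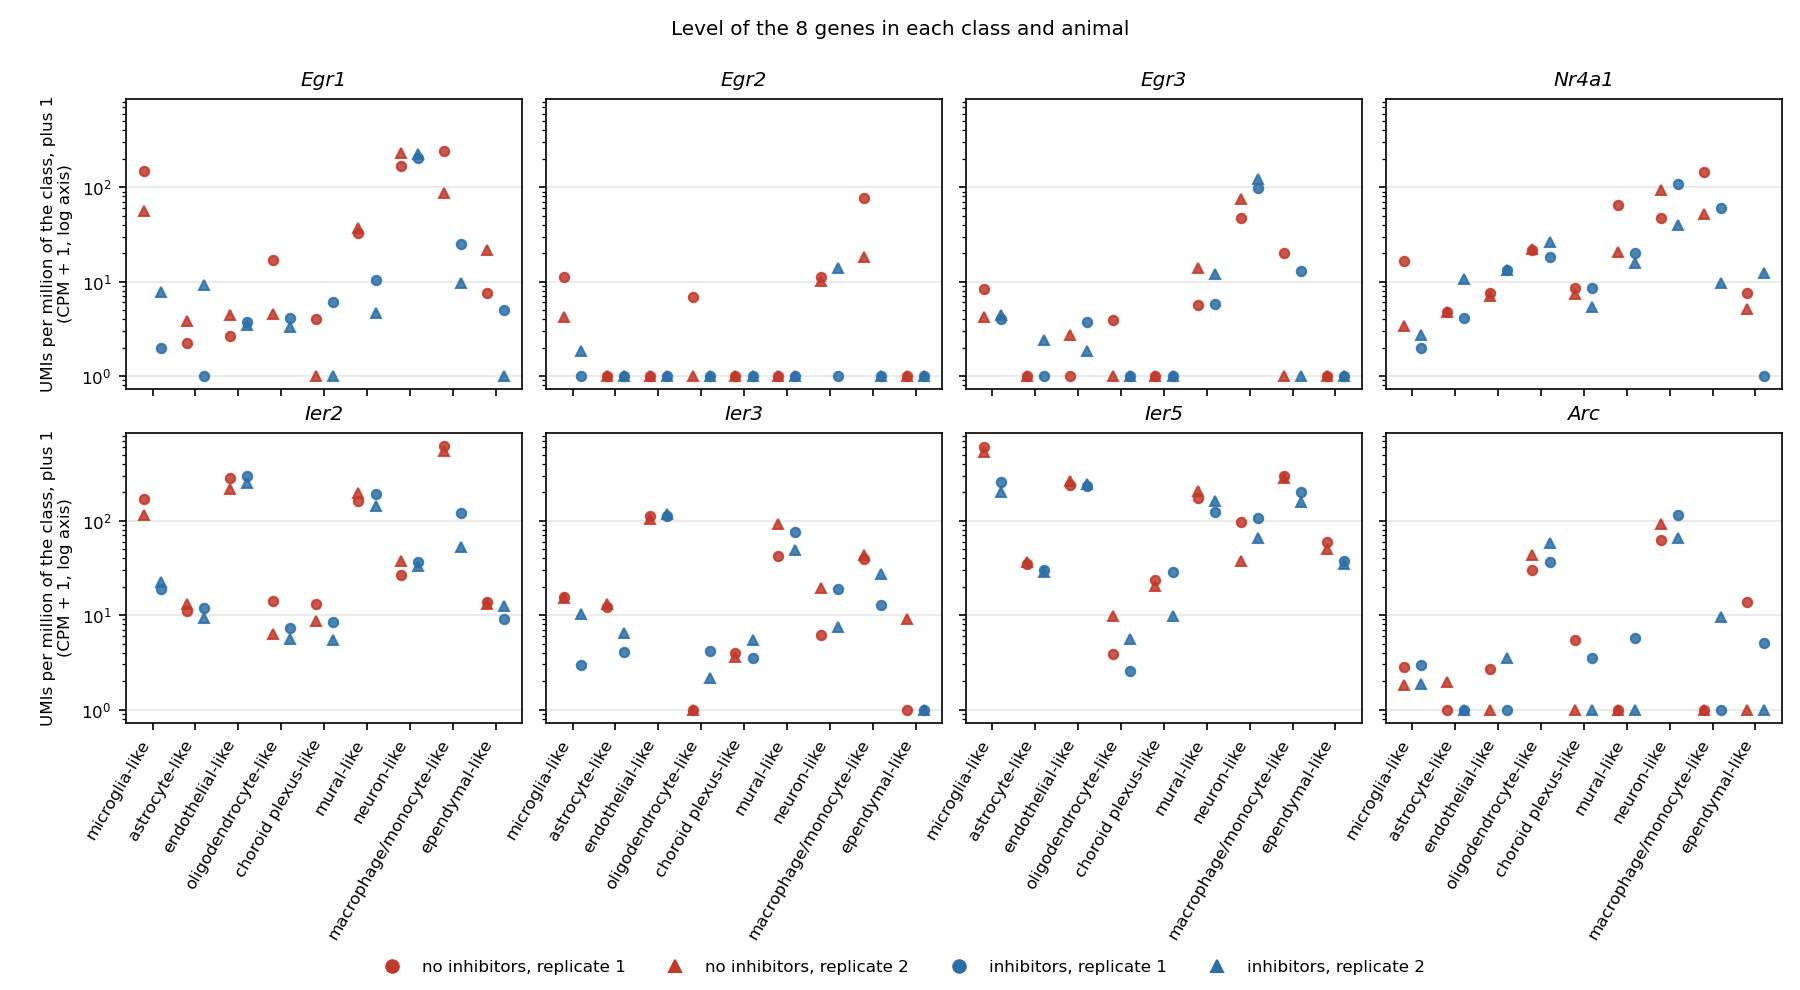
Level of each of the 8 genes (CPM of the class, plus 1, on a log axis) in the 9 classes, with 1 point per animal, red without and blue with inhibitors, circles for replicate 1 and triangles for replicate 2. Egr1 and Ier2 of microglia-like cells lay far apart between the groups, while Egr1 of neuron-like cells and Ier2, Ier3 and Ier5 of endothelial-like cells overlapped.

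Egr1, Egr2 and Egr3 encode zinc-finger transcription factors that bind a shared GC-rich motif. Egr1 in microglia-like cells was 147 and 55.04 CPM without inhibitors (160 and 69 UMIs) and 0.988 and 6.80 CPM with inhibitors (1 and 8 UMIs). Both animals without inhibitors were above both with inhibitors and the groups did not overlap, but the animals within each group were also far apart. The fitted log2 fold change was 4.58 (SE 1.33), and edgeR's robust fit did not call it (adjusted p 0.836) although it is the largest fold change of the 8 genes. Over the alternative fits the adjusted p ran from 1.19e-54 to 0.915. The fit without robust estimation called Egr1 (adjusted p 1.91e-15). Fits that left out 1 animal gave log2 fold changes from 3.74 to 6.53, but they have 1 animal in a group and so hold no spread within that group. DESeq2 did not (adjusted p 0.0555).

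In macrophage/monocyte-like cells Egr1 stood at 240 and 85.1 CPM without inhibitors (25 and 10 UMIs) and at 23.7 and 8.67 CPM with them (2 and 1 UMIs), which do not overlap but were under the filter on low counts. Mural-like cells, the pericytes and smooth muscle of vessels, had 32.1 and 35.9 CPM without and 9.44 and 3.67 CPM with inhibitors, from 7, 11, 2 and 1 UMIs.

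In neuron-like cells Egr1 did not follow this pattern. Its level was 169 and 230 CPM without inhibitors and 205 and 226 CPM with them, so the groups overlapped, and the log2 fold change was -0.14 (SE 0.39, edgeR adjusted p 0.999). The difference between the effect in microglia-like and in neuron-like cells was itself tested as an interaction in a joint fit with the animal as a block. It was 4.80 on the log2 scale (SE 0.50, edgeR adjusted p 1.58e-17), and it was called in each alternative fit that kept every animal. This SE is smaller than that of the effect in microglia-like cells fitted alone (1.33), which was not called. The joint fit used the sums of all tested classes from the same animals with a term per animal. Its SE and p therefore do not measure the spread between animals alone. Neuron-like cells were 319 of the 9861 cells, and they held 13.04% and 17.4% of all Egr1 UMIs without inhibitors against 62.2% and 54.7% with inhibitors. For microglia-like cells the shares were 63.2% and 47.9% without and 2.70% and 12.5% with inhibitors. In the order of Egr1 levels, neuron-like (199 ± 43.3 CPM, SD, n = 2), macrophage/monocyte-like (162 ± 109) and microglia-like cells (101 ± 65.1) overlapped without inhibitors. With inhibitors, neuron-like cells (215.1 ± 15.03 CPM) stood apart from the next of the 9 tested classes, macrophage/monocyte-like cells (16.2 ± 10.7 CPM).

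Egr2, known as Krox20 and as a regulator of myelination in peripheral glia, was the rarest of the 8 genes. It passed the filter on low counts in no class, so it has no test. Of its 35 UMIs over the 4 libraries, 25 and 7 came from the animals without inhibitors and 0 and 3 from those with inhibitors. Macrophage/monocyte-like cells had 8 and 2 UMIs without inhibitors (76.7 and 17.02 CPM) and 0 in both animals with inhibitors. Set against 3 UMIs over the group, the least that a count of 0 allows to be told from no expression, this was at least 2.998-fold higher. Microglia-like cells had 11 and 4 UMIs without and 0 and 1 with inhibitors.

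Egr3, which neurons induce with activity, had its highest level in neuron-like cells. Neuron-like cells had 46.0 and 73.6 CPM without inhibitors (9 and 8 UMIs) and 97.8 and 123 CPM with inhibitors (11 and 19 UMIs). Both animals with inhibitors were the higher ones, and the log2 fold change of -0.95 (SE 0.49) was not called (edgeR adjusted p 0.999). Neuron-like cells held 39.1% and 42.1% of all Egr3 UMIs without and 61.1% and 65.5% with inhibitors, and microglia-like cells held 34.8% and 21.1% without and 16.7% and 13.8% with inhibitors. The level in neuron-like cells stood apart from the other 8 tested classes in both groups, the next of these being macrophage/monocyte-like cells without inhibitors (9.59 ± 13.6 CPM) and mural-like cells with inhibitors (7.86 ± 4.44 CPM).

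Nr4a1 encodes the orphan nuclear receptor Nur77, which acts as a transcription factor without a known physiological ligand. Its UMIs were spread over most classes, and its pooled level overlapped between the groups, at 18.1 and 9.49 CPM without and 12.2 and 12.8 CPM with inhibitors. In microglia-like cells it was 15.6 and 2.39 CPM without inhibitors (17 and 3 UMIs) and 0.988 and 1.70 CPM with inhibitors (1 and 2 UMIs), under the filter on low counts. Endothelial-like cells had the opposite order, 6.64 and 6.04 CPM without and 12.1 and 12.4 CPM with inhibitors. That log2 fold change of -0.94 (SE 0.54) was not called (edgeR adjusted p 0.906). The interaction of microglia-like against endothelial-like cells was 3.35 (SE 0.97) and was not called either (edgeR adjusted p 0.198). Without replicate 2 of the animals without inhibitors, it was called.

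Oligodendrocyte-like cells held Nr4a1 at 20.4 and 21.1 CPM without and 17.2 and 25.4 CPM with inhibitors, a log2 fold change of -0.10 (SE 0.38, edgeR adjusted p 0.974). Within this class Nr4a1 came from only 1 of its 2 clusters in all 4 libraries. The cluster led by Opalin, of 666 cells, had 34.3 and 30.7 CPM without and 28.3 and 34.3 CPM with inhibitors, 59 UMIs in all. The cluster led by Klk6, of 226 cells, had 0 of 930794 UMIs. Against 3 UMIs in that cluster, the pooled level of the Opalin cluster (32.3 CPM) was at least 10.0-fold higher. The Klk6 cluster was the deeper one, with a median of 3876 UMIs per cell against 2571.

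Arc encodes a protein of the postsynaptic side that drives removal of AMPA receptors and is induced by neuronal activity. Neuron-like cells had 61.4 and 92.0 CPM without and 116 and 64.5 CPM with inhibitors, from 10 to 13 UMIs per animal, and the groups overlapped (log2 fold change -0.24, SE 0.51, edgeR adjusted p 0.999). Oligodendrocyte-like cells were the other class with Arc, at 29.2 and 42.3 CPM without and 35.9 and 56.6 CPM with inhibitors (20, 24, 23 and 49 UMIs). Here too the groups overlapped and the log2 fold change of -0.46 (SE 0.30) was not called (edgeR adjusted p 0.657). Oligodendrocyte-like cells held 50% to 75.4% of all Arc UMIs in each library. Unlike Nr4a1, Arc was present in both oligodendrocyte-like clusters, at 40.5 CPM in the Opalin cluster and 45.1 CPM in the Klk6 cluster over all 4 libraries. The 9 neuron markers summed to 55.5 and 56.4 CPM in oligodendrocyte-like cells without and to 81.2 and 77.4 CPM with inhibitors, 2 or 3 of them at 0, and the part of neuronal RNA in these Arc values was not tested. In the other 7 tested classes Arc had 0 to 3 UMIs per animal.

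**Figure D2:**
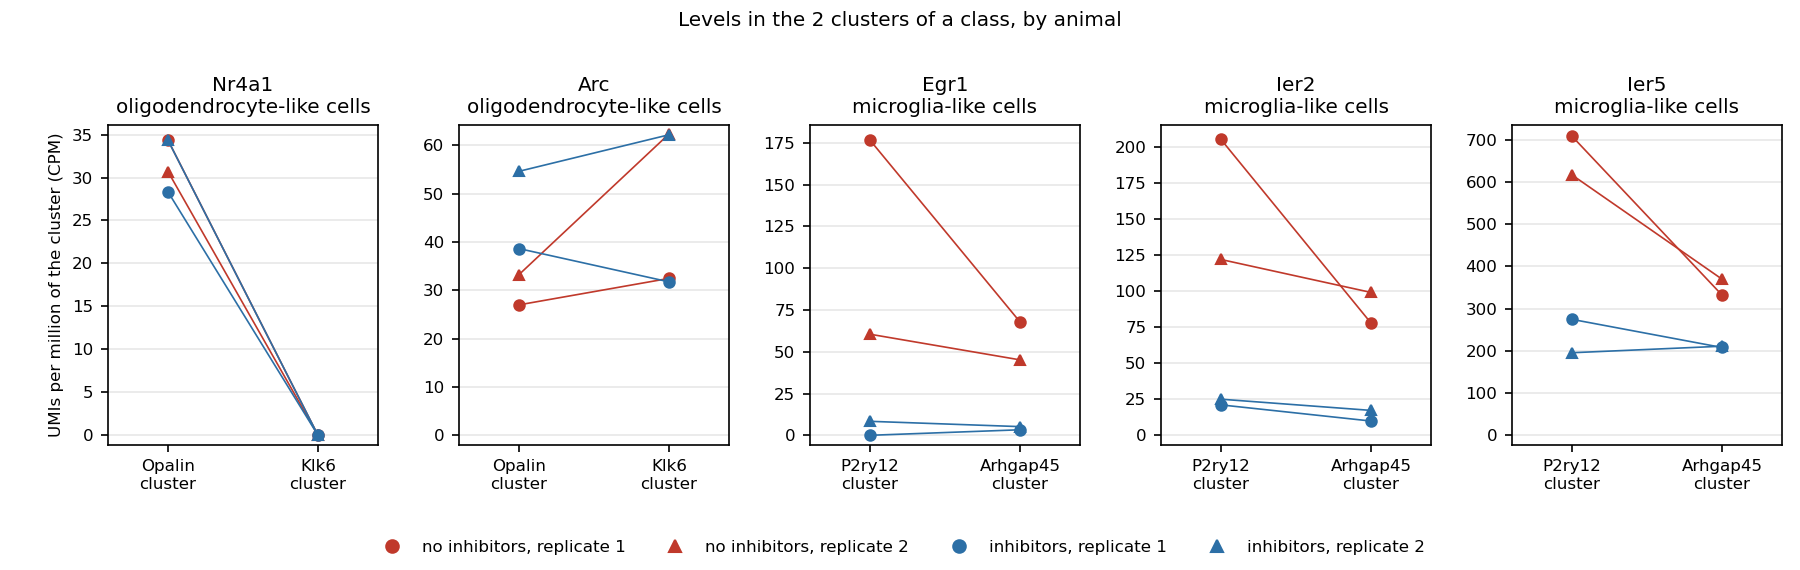
Level (CPM, scaled to the UMIs of the cluster) of Nr4a1 and Arc in the 2 oligodendrocyte-like clusters and of Egr1, Ier2 and Ier5 in the 2 microglia-like clusters, each named by its leading gene, with a line per animal (red without, blue with inhibitors). Nr4a1 was at 0 in the Klk6 cluster in every animal, and the microglial genes were higher without inhibitors in both clusters.

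Ier2, Ier3 and Ier5 are 3 genes named for their immediate-early response. Ier2 and Ier5 encode related nuclear proteins, the latter a regulator of heat shock factor 1, and Ier3 encodes a membrane-associated protein that affects cell survival and ERK signalling.

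Ier2 in microglia-like cells was 171 and 114 CPM without inhibitors (186 and 143 UMIs) and 17.8 and 21.3 CPM with inhibitors (18 and 25 UMIs). The groups were well apart, and Ier2 was 7.32-fold higher without inhibitors (log2 fold change 2.87, SE 0.22, edgeR adjusted p 3.73e-15). It was called in each alternative fit. Macrophage/monocyte-like cells had the highest Ier2 level of any tested class without inhibitors, 623 and 545 CPM (65 and 64 UMIs), and 119 and 52.0 CPM with inhibitors (10 and 6 UMIs). That difference was 7.02-fold (log2 fold change 2.81, SE 0.38, edgeR adjusted p 0.00457). The call was lost (log2 fold change 1.85, adjusted p 0.51) when each cell was thinned to 1000 UMIs, and it held in the other 11 alternative fits, whose adjusted p ran up to 0.0209. Neutrophil markers in this class, 4 genes, summed to 5579 and 10068 CPM without inhibitors but to 0 and 6974 CPM with inhibitors, and Ier2 was called without the animal at 0. The macrophage/monocyte-like class had 2 clusters. The one led by Cd74 had 29 and 40 cells without and 34 and 54 with inhibitors. The one led by Pf4 had 20 and 18 cells without and 10 and 19 with inhibitors. The part of this mix in the Ier2 difference was not tested. The effects in macrophage/monocyte-like and microglia-like cells differed by 0.11 (SE 0.54, edgeR adjusted p 0.989), which does not show that they were equal.

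In vessel cells Ier2 was high with and without inhibitors. Endothelial-like cells had 280 and 216 CPM without and 300.1 and 249.8 CPM with inhibitors, and the log2 fold change was -0.14 (SE 0.13, edgeR adjusted p 0.944). Mural-like cells had 160 and 196 CPM without and 193 and 143 CPM with inhibitors (log2 fold change 0.15, SE 0.24, edgeR adjusted p 0.982). The effect in microglia-like cells exceeded that in endothelial-like cells by 3.03 (SE 0.27, edgeR adjusted p 1.11e-25) and that in mural-like cells by 2.67 (SE 0.35, edgeR adjusted p 6.91e-11) on the log2 scale. Both interactions were called in each alternative fit. The 8 endothelial markers summed to 10712 to 11906 CPM in mural-like cells, against 11858 to 15224 CPM for the 9 mural markers there and 21799 to 23143 CPM for the endothelial markers in endothelial-like cells. The mural-like class had 2 clusters, and the one led by Acta2, of 211 cells, held 34, 56, 37 and 37 of its Ier2 UMIs while the one led by Kcnj8, of 133 cells, held 1, 4, 4 and 2. All 8 endothelial markers were at least 2-fold above the other cells in the former, and fewer than 3 of them were in the latter. Red blood cell markers in mural-like cells summed to 40327 CPM in replicate 1 without inhibitors and to 1389 to 5894 CPM in the other 3 libraries. The part of either marker list in the mural-like values of Ier2, Ier3 and Ier5 was not tested, and the Ier2 interaction was called without that replicate (adjusted p 7.06e-06). The endothelial-like share of all Ier2 UMIs was 33.1% and 43.8% without and 68.8% and 74.4% with inhibitors.

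Ier3 was above all an endothelial transcript. Endothelial-like cells had 111 and 103 CPM without and 110 and 117 CPM with inhibitors, a log2 fold change of -0.07 (SE 0.16, edgeR adjusted p 0.975), and held 58.8% to 78.3% of all Ier3 UMIs. Mural-like cells followed at 41.2 and 91.3 CPM without and 75.5 and 47.7 CPM with inhibitors, where the groups overlapped. In microglia-like cells Ier3 was 14.7 and 14.4 CPM without inhibitors (16 and 18 UMIs) and 1.98 and 9.35 CPM with them (2 and 11 UMIs). The groups did not overlap, and the log2 fold change of 1.31 (SE 0.50) was not called (edgeR adjusted p 0.558). Leaving out 1 animal moved it between 0.65 and 2.85.

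Ier5 was highest in microglia-like cells. Microglia-like cells had 607 and 529.6 CPM without inhibitors (660 and 664 UMIs) and 255 and 203 CPM with inhibitors (258 and 239 UMIs). This was 2.54-fold higher without inhibitors (log2 fold change 1.35, SE 0.11, edgeR adjusted p 5.42e-16), and the call held in each alternative fit. Endothelial-like cells had 239 and 260.5 CPM without and 236 and 244 CPM with inhibitors, the groups overlapped, and the log2 fold change was 0.09 (SE 0.12, edgeR adjusted p 0.957). The interaction between these classes was 1.30 (SE 0.19, edgeR adjusted p 3.72e-09) and was called in each alternative fit. Without inhibitors microglia-like cells (568 ± 54.5 CPM, SD, n = 2) stood apart from the next tested class, macrophage/monocyte-like cells (289 ± 11.6 CPM). With inhibitors endothelial-like (240 ± 5.96 CPM) and microglia-like cells (229 ± 36.5 CPM) overlapped. In the other 7 tested classes the Ier5 log2 fold change lay between -0.18 in neuron-like and 0.70 in macrophage/monocyte-like cells where it passed the filter, and none was called. Oligodendrocyte-like cells had 1 to 5 UMIs per animal.

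**Figure D3:**
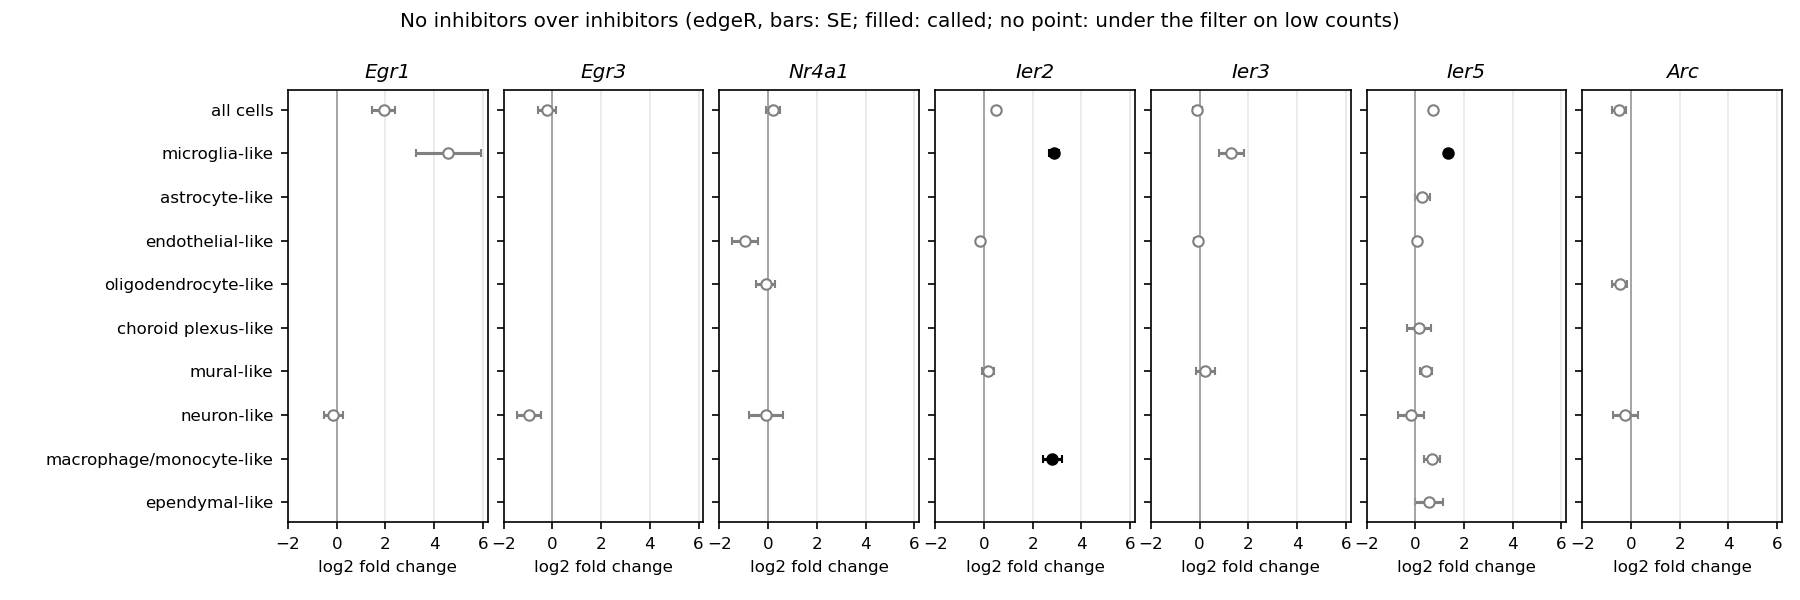
Log2 fold change of values without over values with inhibitors for each gene and class that passed the filter on low counts, with SE bars from edgeR and filled points where called. Ier2 and Ier5 in microglia-like cells and Ier2 in macrophage/monocyte-like cells are filled, and Egr1 in microglia-like cells has the largest value (4.58) with the widest bar (SE 1.33).

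Counted together in microglia-like cells, edgeR called 2 of the 8 genes higher without inhibitors and 0 lower, where 4 of the 8 passed the filter on low counts and 0.44% of all 8636 genes tested were called. Both animals without inhibitors were above both with inhibitors for 6 of the 8 genes, all but Egr3 and Arc, against 12.7% of the 15819 genes with at least 1 UMI in this class. Of the 6, Egr2 (11 and 4 UMIs without, 0 and 1 with inhibitors) and Nr4a1 (17 and 3 without, 1 and 2 with inhibitors) rest on few UMIs. Genes with 1 UMI in a class cannot meet this rule, which lowers the share over all genes here and in the other classes. In macrophage/monocyte-like cells 2 of the 8 passed the filter and 1 was called, with 0.713% of 1542 genes called. There 5 of 8 were above without overlap, against 10.7% of genes. In mural-like cells 3 of the 8 passed the filter and 0 were called, where 0.149% of genes were. There 3 of 8 (Egr1, Nr4a1 and Ier5) were above without overlap, against 12.5% of genes. Endothelial-like, oligodendrocyte-like, neuron-like, astrocyte-like, choroid plexus-like and ependymal-like cells had 0 of 8 called, with 0.0362%, 0.217%, 0%, 0.0478%, 5.01% and 0% of all genes called. In that order, only 4, 2, 5, 1, 1 and 1 of the 8 passed the filter, and the rest had no edgeR test. In these classes and in mural-like cells 0 of the genes that passed the filter had an unadjusted p under 0.05 in edgeR, and DESeq2 called 0. Ependymal-like, astrocyte-like, oligodendrocyte-like and choroid plexus-like cells had 3, 2, 1 and 1 of 8 above without overlap, against 14.3%, 15.5%, 15.3% and 16.4% of genes, and Ier3 was below in oligodendrocyte-like cells, against 15.7% of genes. In endothelial-like and in neuron-like cells 0 of 8 were above without overlap, where 14.5% and 14.9% of genes were, and 1 was below in each (Nr4a1 and Egr3), where 14.9% and 12.1% of genes were. For the interactions with microglia-like cells, 2 of 8 were called against endothelial-like cells (0.215% of all genes), and 1 each against neuron-like (0.0604%), mural-like (0.124%) and astrocyte-like cells (0.0765%). None were called against oligodendrocyte-like (0.0794%), choroid plexus-like (0.373%), macrophage/monocyte-like (0.0385%) and ependymal-like cells (0.0622%), where edgeR gave an unadjusted p under 0.05 for 0 to 4 of the genes with a value. The call against astrocyte-like cells was Egr1, which had 1, 3, 0 and 6 UMIs there, with a difference of 5.45 (SE 1.16, edgeR adjusted p 0.00313). It was lost without replicate 1 of the animals without inhibitors (adjusted p 0.324) and without replicate 2 of those with inhibitors (adjusted p 1).

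Egr1 and Ier5 are on a gene list that the study chose on these same libraries, so their direction here is not independent evidence. Both are also on its list from sorted microglia of other animals. Red blood cell markers, 6 genes, summed to 518 and 767 CPM in microglia-like cells without inhibitors and to 160 and 288 CPM with inhibitors, while the 8 microglia markers summed to 22186 to 25508 CPM. Erythrocyte-like cells held Ier2 at 46.9 and 85.8 CPM without and 110.1 and 148 CPM with inhibitors. They held Ier5 at 56.3 and 136 CPM without and 220.3 and 163 CPM with inhibitors. Without inhibitors these levels were below those of microglia-like cells, with inhibitors that of Ier2 was above and that of Ier5 near them, and their part in the microglial values was not tested. Median depth per microglia-like cell was 1462 and 1410.5 UMIs without and 1443.5 and 1264 UMIs with inhibitors.

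In sums over all cells, 7 of the 8 genes passed the filter and 0 were called by edgeR, where 0.0363% of 13783 genes were called. At an unadjusted p under 0.05 there were 3, Egr1, Ier2 and Ier5. Both animals without inhibitors were above both with inhibitors for 4 of the 8 (these 3 and Egr2), against 11.2% of genes, and below them for Arc, against 24.4% of genes. Ier5 was 197 and 192 CPM without and 121 and 125 CPM with inhibitors and just missed the threshold (log2 fold change 0.74, SE 0.10, edgeR adjusted p 0.052). DESeq2 called it (adjusted p 0.00358), and over the other alternatives its adjusted p ran from 3.42e-06 to 0.671. Egr1 was 51.9 and 23.6 CPM without and 8.19 and 12.2 CPM with inhibitors (log2 fold change 1.92, SE 0.47, edgeR adjusted p 0.655), and DESeq2 called it too (adjusted p 4.10e-04). Ier2 pooled to 105 and 93.4 CPM without and 71.7 and 77.3 CPM with inhibitors, a log2 fold change of 0.48 (SE 0.11, edgeR adjusted p 0.361), against 2.87 in microglia-like cells. For Ier3 the pooled levels overlapped, 23.4 and 32.1 CPM without and 28.5 and 34.3 CPM with inhibitors.

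For single cells, 1000 UMIs of each cell were drawn at random and shallower cells left out, so that shares of cells do not follow depth. Ier5 was found in 34.3% (221 of 645) and 30.9% (227 of 735) of microglia-like cells without inhibitors and in 25.2% (152 of 602) and 17.1% (125 of 732) with inhibitors. Egr1 was found in 7.91% and 3.67% without and in 0.166% and 0.82% with inhibitors, and Ier2 in 7.60% and 4.49% without and in 1.83% and 1.91% with inhibitors. Before thinning the Egr1 shares were 8.90% and 3.81% without and 0.145% and 0.87% with inhibitors. Oligodendrocyte-like cells had the lowest mean Ier5 and Ier2 levels of the 9 tested classes in both groups, so they give a lower end and not a general background. They had Ier5 in 0% to 1.17% of cells and Ier2 in 0.318% to 0.585% at the same depth, from median depths of 2449 to 3131.5 UMIs before thinning. Erythrocyte-like cells, of which 5 to 32 per library were deep enough, had Egr1 in 0, Ier2 in 0% to 20% and Ier5 in 0% to 15.4%.

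For Egr1, Ier2 and Ier5, microglia-like cells that held the gene also held more UMIs of it without inhibitors. Microglia-like cells with Egr1 held 2.50 and 2.09 UMIs of it on average without inhibitors, and up to 9 in 1 cell, against 1 UMI in each of the 9 cells with it in the animals with inhibitors. For Ier2 the averages were 2.62 and 2.31 without and 1.12 and 1.04 with inhibitors, with up to 19 UMIs in 1 cell without and 2 with inhibitors. Ier5 averaged 2.11 and 1.98 UMIs without and 1.22 and 1.18 with inhibitors, while the averages of Nr4a1 (1.31 and 1.5 without, 1 and 2 with inhibitors) and Egr3 overlapped. At 1000 UMIs per cell, 9.15% (59 of 645) and 4.49% (33 of 735) of microglia-like cells without inhibitors held at least 2 of the 8 genes, against 0.498% (3 of 602) and 0.546% (4 of 732) with inhibitors. At least 3 genes were held by 19 and 11 cells without inhibitors and by 0 of 602 and 0 of 732 with inhibitors. In endothelial-like cells the shares with at least 2 genes were 7.58% and 8.03% without and 11.7% and 8.18% with inhibitors.

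**Figure D4:**
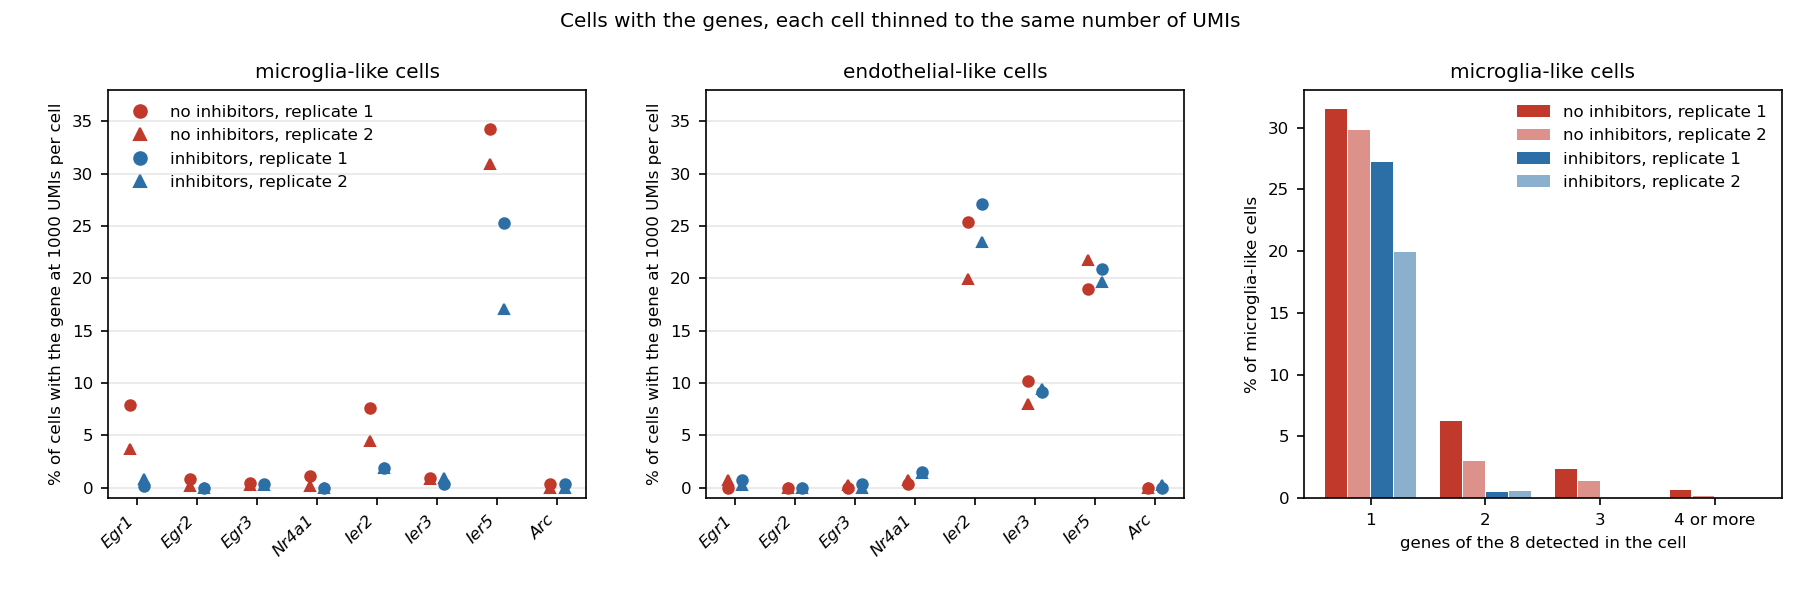
Share of microglia-like (left) and endothelial-like cells (middle) with each gene at 1000 UMIs per cell, 1 point per animal, and share of microglia-like cells by how many of the 8 genes they held (right, bars per animal). Without inhibitors (red) Egr1, Ier2 and Ier5 were found in more microglia-like cells and cells with 3 or more genes appeared, while endothelial-like shares overlapped for Ier2 and Ier5.

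Egr1, Ier2 and Ier5 were compared within single cells. Among microglia-like cells with Egr1 in the animals without inhibitors, 22 of 51 and 14 of 27 also held Ier2 (43.1% and 51.9%), against 4.55% and 2.68% of cells without Egr1. Ier5 was held by 66.7% and 59.3% of cells with Egr1 and by 31.5% and 29.8% of cells without it. These are cells of 2 animals, counts of 27 and 51 are small, and cells are not replicates. The microglia-like cells formed 2 clusters, led by P2ry12 and by Arhgap45. Without inhibitors Egr1 was 177 and 60.5 CPM in the first and 67.8 and 45.1 CPM in the second, and Ier5 was 709 and 617 against 332 and 370 CPM. Nr4a1 had all of its 20 UMIs without inhibitors in the first cluster and 0 of 738134 UMIs in the second, at least 3.07-fold lower than in the first when set against 3 UMIs. The first cluster was the deeper, with a median of 1495 against 1193 UMIs per cell.

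Other genes of the immediate-early program were tested in the same fits. Of 48 such genes on a list of AP-1 subunits, relatives, SRF partners, ERK feedback genes and other early targets, 27 passed the filter in microglia-like cells, and edgeR called 8 higher and 0 lower without inhibitors. The median log2 fold change of the 27 was 0.52, against 0.00 over all genes tested, and 8 of the 48 are on the list chosen on these libraries. The 48 genes were chosen with earlier results of these data known. A gene can also pass the filter through its counts in 1 group alone. This median is therefore a description and not a test of the list. The largest of those called were Dusp1, a phosphatase that turns off MAP kinases (log2 fold change 5.54, SE 0.29, adjusted p 6.60e-10), Zfp36, which binds AU-rich elements (2.87, SE 0.15, adjusted p 4.28e-15), and the AP-1 subunit Junb (2.49, SE 0.11, adjusted p 1.27e-22). They were followed by the stress factor Atf3 (2.42, SE 0.24, adjusted p 5.59e-12) and Jund (2.14, SE 0.16, adjusted p 1.16e-05). Fos and Jun were not among the genes called in microglia-like cells, which does not show that they were unchanged there. Of the 8 AP-1 genes and early partners on the list, 5 passed the filter in this class and 3 were called, and the median log2 fold change of the 5 was 2.49. Dusp1 was 351 and 244 CPM without and 9.88 and 3.40 CPM with inhibitors, and its fitted fold change exceeded those of all 8 genes. In macrophage/monocyte-like cells 13 genes of the list passed the filter and 6 were called higher, with Dusp1 (log2 fold change 6.41), Fos (6.15), Jun (3.42), Zfp36 (3.06) and Btg2 (2.48) the largest. The SRF partners and corepressors had 0 called in microglia-like cells, with 7 of 8 passing the filter.

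In endothelial-like cells 31 genes of the list passed the filter and 0 were called, with a median log2 fold change of -0.12. Neuron-like cells had 9 passing and 0 called. In oligodendrocyte-like cells, where Arc and Nr4a1 were not called, edgeR called 3 of 17 higher, Fos (log2 fold change 5.67, SE 0.54, adjusted p 4.15e-05), Junb (3.30, SE 0.54, adjusted p 1.50e-04) and Jun (1.14, SE 0.18, adjusted p 4.63e-05). Mural-like cells had Fos (3.72, SE 0.33, adjusted p 6.36e-10) and Junb (1.36, SE 0.29, adjusted p 0.034) called of 26 that passed. In choroid plexus-like cells Gadd45g was lower without inhibitors (log2 fold change -0.82, SE 0.20, adjusted p 0.0105), and 8 passed. Pooled over all cells, Zfp36 (2.09, SE 0.17) and Junb (2.03, SE 0.15) were called, both at an edgeR adjusted p of 0.00774.

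The genes most like each of the 8 were sought by Pearson's r of log2(CPM + 1) over 36 sums, 4 animals by 9 classes, among 7667 genes with a mean of at least 20 CPM. These sums share libraries and classes, so r is a description. Ier2 was most like Klf2 (r = 0.915), a transcription factor of endothelium, Clec2d (0.915) and H2-D1 (0.895). Ier3 was most like Clec2d (0.899), Ly6a (0.886) and Nck1 (0.882), and Ier5 was most like Akap13 (0.929), Shisa5 (0.925) and Kctd12 (0.91). Egr3 was like Nrgn (0.818) and Scn2b (0.812), which are known as neuronal genes, and Arc was like Anks1b (0.855), 2900055J20Rik (0.854) and Spock1 (0.848). For Egr1 the values were lower, with Gga1 (0.711), Ogfrl1 (0.69) and Fos (0.684), as they were for Nr4a1 with Ncdn (0.635), Ube2o (0.634) and Cyb5r4 (0.627) and for Egr2 with Ccl2 (0.63), Lrrc25 (0.628) and Cmas (0.609). Within the 8 genes, Ier2 and Ier3 had r = 0.85, Ier2 and Ier5 0.82, and Egr1 and Egr3 0.78, while Arc and Ier5 had -0.40.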

How the data were processed

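The authors made the deposited count matrices with Cell Ranger 3.0.0 on mm10 (GRCm38), and the values are raw UMI counts per gene and cell barcode, not normalized. The deposited barcodes had been called as cells and libraries were not pooled. Barcodes with at least 400 genes and at most 20% mitochondrial UMIs were kept (10067 of 12487). Simulated doublets were scored over 20 nearest neighbours and 206 barcodes (2.05%) were removed. Cells were clustered (2000 variable genes without the 8 genes and early-response lists, 78 genes in all, 30 principal components, 15 neighbours, Leiden resolution 1 with leidenalg 0.10.2), and the 24 clusters were named from marker lists.

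Counts were summed per class and animal and tested with edgeR 4.0.16 (filterByExpr, TMM, robust quasi-likelihood fit) in R 4.3.3, with DESeq2 1.42.0 as an alternative. Other alternatives were RLE factors, no filter, no robust estimation, the replicate number as a block, stricter cells (at least 500 genes, at most 10% mitochondrial UMIs), doublets kept, cells thinned to 1000 UMIs, and each animal left out. Interactions came from a joint fit with the animal as a block and were called at an adjusted p under 0.05 alone. Groups and replicate numbers came from the sample titles. The fits were tested on simulated counts. All 8 genes were named, and of the 48 related genes only those called, at most 5 per class with the largest change. The 8 genes and all lists were chosen with earlier results of these data known. With depths of 84254 to 1253671 UMIs per class and animal, 3 UMIs, taken as the least count told from 0, correspond to 35.6 and 2.39 CPM. Intervals were not computed, and floors cover counting error only. Strand of counting and reads shared with near-identical copies were not examined. 1 gene from the search for similar patterns is not reported here.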

Additional observations from a re-analysis of the deposited data

Results flagged for a closer look

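The effect of leaving out inhibitors differed between microglia-like cells and another class for 3 of the 8 genes, by the interaction test of edgeR (log2 effect in microglia-like cells minus that in the other class). For Egr1 the difference was 4.80 against neuron-like cells, where all 4 libraries lay between 169 and 230.1 CPM. Against astrocyte-like cells it was 5.45 for Egr1, a value that rests on 10 UMIs over the 4 astrocyte-like sums and was not called without either of 2 libraries. Ier2 differed by 3.03 against endothelial-like cells and by 2.67 against mural-like cells. For Ier5 the difference against endothelial-like cells was 1.30. The values of single animals stand with each gene above.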

How the results depend on the processing

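Of 371 alternative values for 35 fold changes and differences, 331 kept their direction and side of the threshold, 3 lost a call, 16 gained a call and 21 changed sign. In microglia-like cells 2 of the 8 genes were called, and 3 (with Egr1) without robust estimation and with the replicate block. A fit with 1 animal left out has 1 animal in a group, so it holds no spread within that group. Pooled over all cells 0 were called, against 2 with DESeq2, 3 with no filter on low counts, 1 after thinning to 1000 UMIs, 1 with the replicate block, and 0 to 2 with 1 animal left out (Egr1 and Ier5 without either animal that had no inhibitors). In macrophage/monocyte-like cells the count of 1 became 2 with no filter, 0 after thinning, and 1 to 2 with 1 animal left out. Interaction calls against astrocyte-like cells went from 1 to 2 in pairwise fits and lay at 0 to 2 with 1 animal left out, and those against endothelial-like cells at 2 to 4. The cause of these changes was not tested.

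The gap between groups in the share of microglia-like cells with at least 1 of the genes was 13.3 percentage points at 1000 UMIs per cell (9.71 to 16.96 with 1 animal left out) and 25.9 at 2000. For at least 2 genes it was 6.30 (3.97 to 8.62) and 20.4. Ier2 was found more often beside Egr1 by 43.9 points (38.6 to 49.2), and by 36.0 at 2000 UMIs. The values at 2000 UMIs rest on few, deep cells. Microglia-like cells with Egr1 at that depth numbered 15 and 9 without and 0 and 1 with inhibitors. Those without Egr1 numbered 69 and 81 without and 58 and 23 with inhibitors.

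Sign changes concerned values that were not called. With the stricter cell filter Egr3 over all cells was 0.69 (otherwise -0.23) and Ier3 in endothelial-like cells 0.013. With 1 animal left out, the ranges over all cells were -0.54 to 0.052 for Egr3, -0.31 to 0.60 for Nr4a1 and -0.36 to 0.11 for Ier3. They were -0.30 to 0.050 for Ier2 and -0.0059 to 0.15 for Ier5 in endothelial-like cells, -0.33 to 0.29 for Nr4a1 in oligodendrocyte-like cells and -0.23 to 1.37 for Ier5 in choroid plexus-like cells. In mural-like cells they were -0.038 to 0.36 for Ier2 and -0.49 to 0.64 for Ier3. In neuron-like cells Egr1 ran from -0.32 to 0.057, Nr4a1 from -0.68 to 0.74, Ier5 from -1.20 to 0.26 and Arc from -0.61 to 0.19.

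Same-numbered animals deviated together with r = 0.128 over all cells and -0.0464 to 0.0653 within classes, over 2 pairs, so the numbers were not taken as pairs. The replicate block added Ier5 over all cells (adjusted p 0.0165) and Egr1 in microglia-like cells (adjusted p 6.14e-43). Depth limits Egr2 everywhere, and Egr3, Nr4a1 and Arc outside a few classes.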

Other observations

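In classes with fewer than 20 cells in at least 1 animal no test was made. Fibroblast-like cells held Egr1 at 73.4 and 40.3 CPM without and 10.96 and 33.7 CPM with inhibitors, from 6, 8, 2 and 6 UMIs. Their Ier2 was 73.4 and 40.3 CPM without and 27.4 and 16.9 CPM with inhibitors. Nr4a1 had the opposite order there, 0 and 10.1 CPM without and 21.9 and 16.9 CPM with inhibitors, from 0, 2, 4 and 3 UMIs, and Ier3 overlapped, at 36.7 and 20.1 CPM without and 65.8 and 16.9 CPM with inhibitors. Neural progenitor-like cells had 1 and 7 Egr1 UMIs without and 0 and 0 with inhibitors. In olfactory ensheathing-like cells, present in 1 library of each group, Egr1 had 5 UMIs without and 0 with inhibitors. Erythrocyte-like cells ran the other way for Ier2, at 46.9 and 85.8 CPM without and 110.1 and 148 CPM with inhibitors, from 5, 17, 4 and 10 UMIs in 21, 33, 5 and 14 cells.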
